A study of Mus musculus with 20 samples.

Results

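In the hypothalamus of young mice, 434 genomic intervals were chosen because their methylation signal at least doubled from birth to weaning age in non-neuronal nuclei and stayed near its starting level in neuronal nuclei. They were 434 of the 27259 intervals with enough reads, or 1.59%, and of 50782 intervals in the deposited table. Each library's read counts were divided by that library's median count over the 15147 intervals with at least 20 reads in all 20 libraries, and the scaled counts were averaged per group. An interval entered with at least 10 reads in at least 5 libraries, a ratio of postnatal day 21 (P21) over postnatal day 0 (P0) of at least 2 in non-neurons, and a ratio between 0.67 and 1.5 in neurons. The members were therefore selected on measured values. Their changes with age in these libraries, and the calls made on them, are a description and no evidence of a gain.

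The samples were nuclei from the hypothalamus of male C57BL/6 mice, an inbred laboratory strain, and the labels name no treatment. Fluorescence sorting parted the nuclei by staining for NeuN, a protein of neuronal nuclei, into stained nuclei (neurons) and unstained nuclei (non-neurons). The 4 groups were P0 neurons, P0 non-neurons, P21 neurons and P21 non-neurons, with 5 libraries each. Every sample pooled 2 hypothalami of the same age, so no value belongs to a single animal. The non-neuronal fraction was defined only by the absence of NeuN. A change of methylation within a cell type and a change in the mix of cells in that fraction cannot be told apart here. The sort was not checked against marker genes, because the counts are given by genomic position on the mm9 assembly and no gene annotation of that assembly was used here.

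DNA methylation in mammals is a methyl group on cytosine, mostly where cytosine is followed by guanine. It is written by DNA methyltransferases, and in the brain it is still being laid down and removed after birth while glia multiply and mature. Methylation at promoters and enhancers generally goes with silent regulatory DNA, whereas methylation inside transcribed genes is common. The NeuN-negative nuclei of brain tissue belong to astrocytes, the oligodendrocyte lineage that makes myelin, microglia, vascular cells and progenitors.

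Methylation was read with methylation-specific amplification and sequencing. The enzyme SmaI first cuts unmethylated CCCGGG sites, and XmaI then cuts those that are methylated. Adaptors join only the XmaI ends, and the stretch between neighbouring sites is amplified when both of its end sites are methylated. More reads mean more methylated end sites, but the scale is relative and gives no percent of methylated DNA. Levels are given as CPM, the read count relative to the TMM-scaled library size. The libraries held 5663740 to 9998110 reads. P21 non-neuron replicates 1 and 4 stood apart from the other 18 libraries in reading short intervals more highly. The ratios of the rule and the members that meet it are given with and without them. The edgeR calls are not given without both of them.

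The members were weakly covered intervals. Their mean count per library had a median of 20.3 reads, against 65.2 over all intervals kept, and 212 of them (48.8%) averaged under 20 reads. The median member stood at 2.06 CPM in P0 neurons and 1.81 CPM in P0 non-neurons. At P21 the medians were 2.60 CPM in neurons and 4.25 CPM in non-neurons. The highest group median was thus that of P21 non-neurons. The choice of members requires P21 non-neurons to exceed P0 non-neurons but sets no level against neurons.

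A gain in non-neurons alone was not what most members showed. The P21/P0 ratio of the members in neurons had a median of 1.31 (interquartile range 1.12 to 1.40), and 373 of the 434 (85.9%) were above 1 in neurons as well, against 47.0% of all kept intervals. In 283 (65.2%) the neuron ratio lay between 1.2 and 1.5, just inside the limit, and 61 were under 1. The ratio in non-neurons had a median of 2.24 (interquartile range 2.10 to 2.47), with 335 members (77.2%) between 2 and 2.5 and 4 members at 4 or more. Most members thus had mean ratios above 1 in both kinds of nuclei, whether or not a change in neurons passed the test given further on. The plot of both age ratios shows the members in the upper left edge of a cloud that runs along the diagonal. Of the 2899 kept intervals with a non-neuron ratio of at least 2, 2447 had a neuron ratio above 1.5 and 18 a neuron ratio under 0.67.

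**Figure D1:**
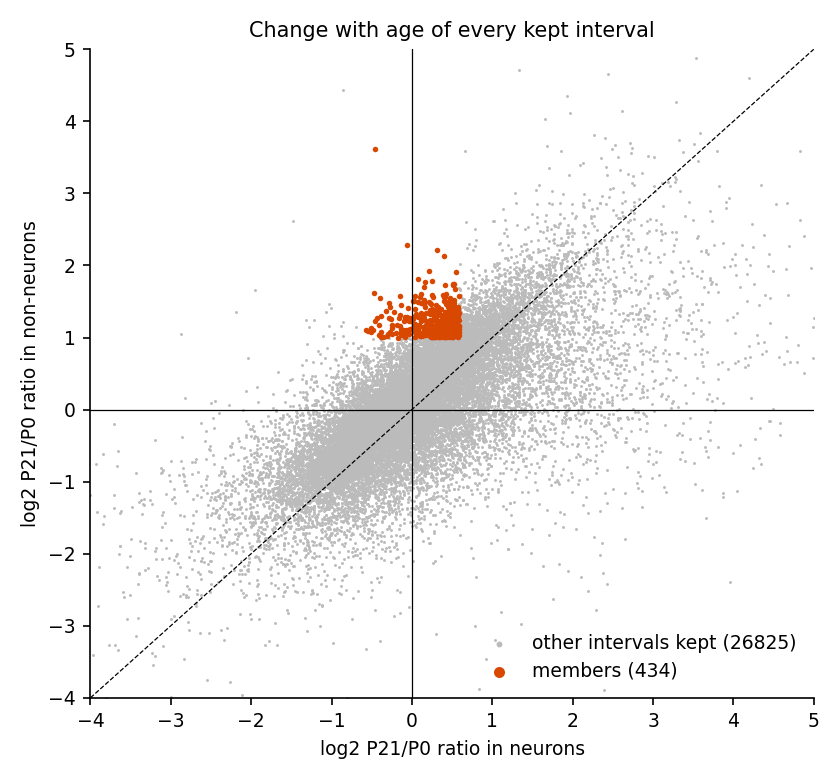
The log2 P21/P0 ratio of scaled counts in neurons (x axis) and in non-neurons (y axis) is plotted for the 434 members (orange) and the other kept intervals (grey), with the line of equal change dashed; points beyond the axes are not drawn. The members lie above the diagonal by the rule that chose them, and 373 of them lie to the right of 0 in neurons.

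The size of these changes was set beside the spread between libraries with edgeR's quasi-likelihood test over 26679 intervals, at a Benjamini-Hochberg adjusted p under 0.05. An interval past that limit is called. Of the members, 399 passed the read filter of the test and 35 did not. In non-neurons 391 of the 399 were called higher at P21 (98.0%, against 28.5% of all tested intervals) and 0 lower, which the choice of members largely fixes. In neurons 117 of the 399 were called higher at P21 (29.3%, against 31.0% of all tested intervals) and 0 lower. The neuron limit of the rule bounded that count too, so nothing is read from it. The median log2 fold change of the tested members was 1.18 in non-neurons and 0.51 in neurons, where all tested intervals had medians of 0.03 and 0.06.

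In 274 members (68.7%, against 8.06% of all tested intervals) a rise was called in non-neurons and no change was called in neurons. A missing call does not show that an interval stayed level in neurons. The difference between the age changes of the cell types, the interaction, was called as larger in non-neurons in 48 of the 399 members (12%, against 3.24% of all tested intervals) and as larger in neurons in 0. The other 351 members had no called interaction, and 102 of them were called higher at P21 in neurons too. Both age changes chose the members, so these counts describe them and support nothing further.

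The 48 members with a called interaction stood at higher levels than the members as a whole. Their median level in P21 non-neurons was 9.26 CPM and in P21 neurons 4.35 CPM. Their P21/P0 ratio had a median of 2.33 in non-neurons and 1.08 in neurons, and 21 of the 48 were below 1 in neurons. In 33 of them no change with age was called in neurons, and those had a median neuron ratio of 0.929. These 33 came nearest to a gain seen in non-neurons alone, although 23 of them were of 100 to 300 bp, the length at which 2 P21 non-neuron libraries stood apart. Without those libraries 33 of the 48, and 19 of the 33, still met the rule.

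The interval chr13:34224272-34224484 (212 bp) had the largest ratio, 12.3 in non-neurons and 0.727 in neurons. It is described here, like the other 3 members with a ratio of 4 or more, because its values were seen. It had 39, 14, 17, 16 and 17 reads in P21 non-neuron replicates 1 to 5, and 2, 0, 2, 1 and 2 reads in P0 non-neurons. Neurons had 2, 1, 2, 0 and 2 reads at P0 and 0, 3, 2, 4 and 0 reads at P21. All 5 P21 non-neuron libraries were above all 15 others, and replicate 1 was far above the other 4 of its group. Outside P21 non-neurons the interval was hardly read at all. The log2 fold change with age was 3.55 ± 0.56 (SE) in non-neurons and -0.25 ± 0.81 in neurons.

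The interval chr3:123588175-123588329 (154 bp) had a ratio of 4.88 in non-neurons and 0.958 in neurons. Its P21 non-neuron reads were 30, 12, 17, 17 and 22, against 2, 3, 7, 2 and 3 in P0 non-neurons. Neurons had 5, 4, 8, 8 and 5 reads at P0 and 7, 14, 12, 10 and 7 at P21. The 5 P21 non-neuron counts did not overlap those of P0 non-neurons, and the P21 neuron counts overlapped those of P0 neurons.

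The interval chr8:94325966-94326857 (891 bp) had a ratio of 4.64 in non-neurons and 1.24 in neurons. It had 15, 19, 32, 30 and 23 reads in P21 non-neurons, against 7, 2, 9, 2 and 2 in P0 non-neurons and 0 to 9 in every neuron library. The member that touches it, chr8:94326857-94327067 (210 bp), shares 1 cut site with it and had a ratio of 3.77 in non-neurons and 1.16 in neurons. Its P21 non-neuron reads were 40, 15, 29, 28 and 29, and its P0 non-neuron reads 6, 11, 10, 4 and 1. Both intervals separated P21 non-neurons from P0 non-neurons without overlap. They share an end site, so they are not independent of each other.

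The fourth of these members, chr19:45227744-45229222 (1478 bp), had 10, 17, 18, 10 and 18 reads in P21 non-neurons and 0, 3, 5, 5 and 1 in P0 non-neurons. Its ratio was 4.39 in non-neurons and 1.32 in neurons. It had 18 reads or fewer in every library.

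Among members above the median level of all kept intervals, the largest ratios in non-neurons without overlap between the ages ran from 2.41 to 2.59. The interval chr5:22118910-22120634 (1724 bp) gave 16.3, 21.5, 18.7, 18.2 and 22.9 CPM in P21 non-neurons. It gave 6.42, 8.98, 5.31, 8.18 and 7.92 CPM in P0 non-neurons. Neurons went from 8.13, 9.29, 7.74, 8.07 and 6.98 CPM at P0 to 13.8, 12.2, 12, 12.1 and 11.3 CPM at P21. The ages did not overlap in either cell type, and the 2 cell types overlapped at P0 but not at P21. Its ratio was 2.58 in non-neurons and 1.40 in neurons, and the log2 fold changes were 1.41 ± 0.15 (SE) and 0.61 ± 0.15. Here a clear gain in neurons stood beside a larger one in non-neurons. With each library's dependence on interval length removed, the neuron change was 0.14 on the log2 scale and not called.

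Of the same set, chr10:94427269-94428919 (1650 bp) rose from a mean of 9.22 ± 1.28 CPM (SD, n = 5) to 22.8 ± 2.91 CPM in non-neurons, a ratio of 2.41. In neurons it went from 9.25 ± 2.76 CPM to 14.7 ± 2.18 CPM, a ratio of 1.46. Neurons and non-neurons had nearly equal means at P0. At P21 the 5 non-neuron values, 19.7 to 27.0 CPM, lay above the 5 neuron values, 10.9 to 16.2 CPM.

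The set also held chr4:103106166-103108355, described with the P0 libraries further on, and 3 short members. The interval chr19:56395113-56395391 (278 bp) had 23.7, 18.5, 13.5, 18.1 and 12 CPM in P21 non-neurons and 12.1 to 16.3 CPM in P21 neurons, with ratios of 2.53 and 1.5. The interval chr8:45707390-45707594 (204 bp) had 27.8, 15.9, 18.7, 22.1 and 13.2 CPM in P21 non-neurons and 11 to 20 CPM in P21 neurons, with ratios of 2.52 and 1.45. At both of these the cell types overlapped at P21, and replicate 1 was the highest P21 non-neuron library.

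Replicates 1 and 4 were the highest at the third short member, chr6:130414905-130415171 (266 bp), which had 24.5, 11.7, 11.3, 19.9 and 11.4 CPM in P21 non-neurons. Its coefficient of variation there, 38.9%, was the largest among members above the median level. The next, chr1:168338649-168338963 (314 bp), had 20.1, 14.3, 9.89, 13.8 and 8.10 CPM, or 35.0%. Replicate 1 was the highest library at both. At chr6:130414905-130415171 P21 neurons were called lower than P21 non-neurons, by -0.59 ± 0.19 (SE) on the log2 scale, and that call was lost without replicate 1 (-0.37) or without replicate 4 (-0.49).

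**Figure D2:**
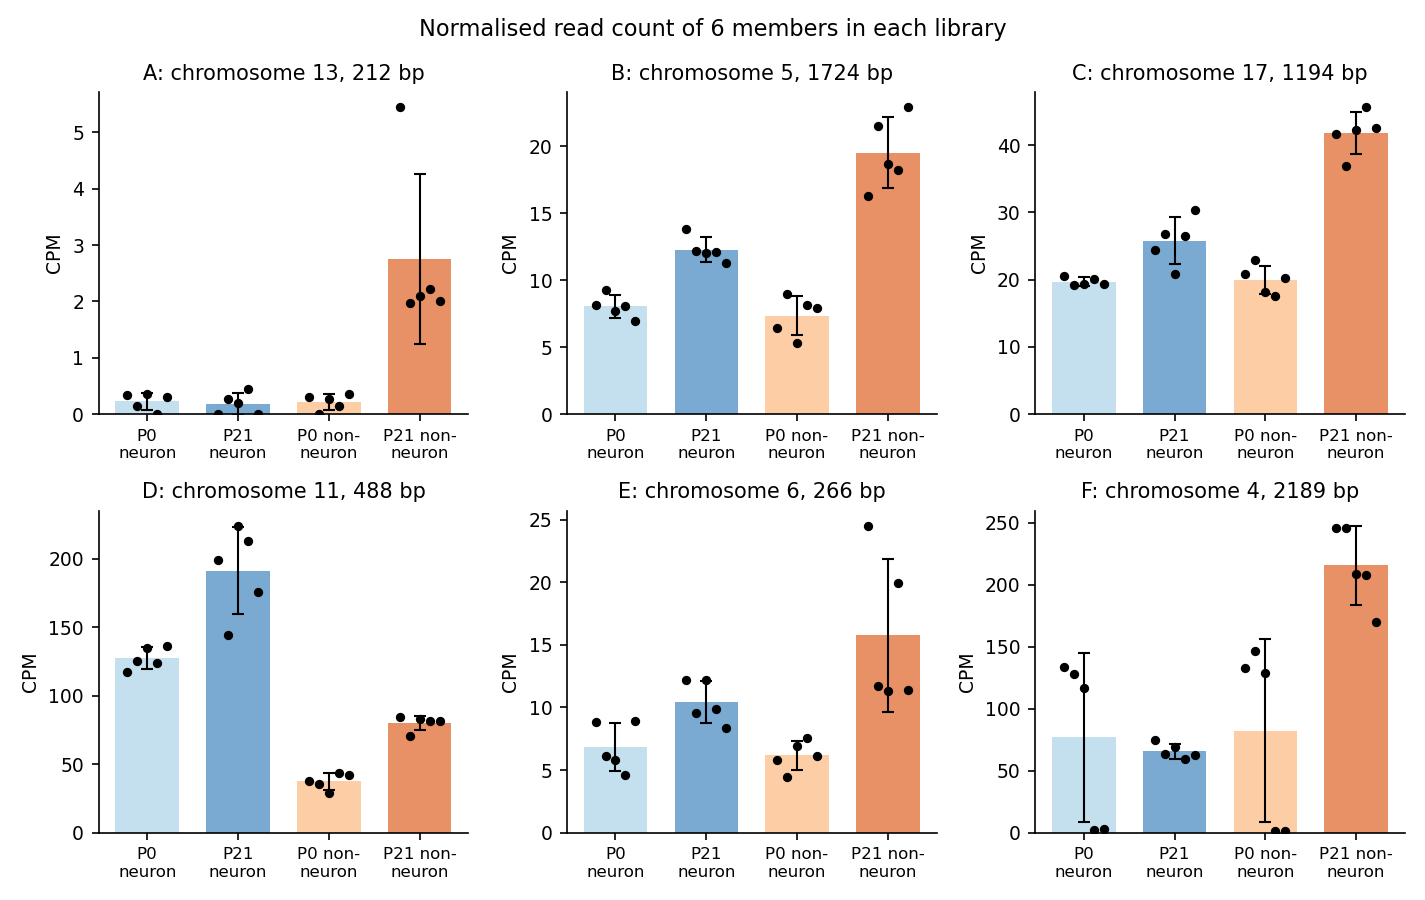
CPM of 6 members in each of the 20 libraries (points, in the order of replicates 1 to 5) with group means (bars) and SD (error bars, n = 5); panel A is the chromosome 13 interval, B the chromosome 5, C the chromosome 17, D the chromosome 11, E the chromosome 6 and F the chromosome 4 interval named in the text. In A to E the P21 non-neuron values lie above the P0 non-neuron values, in D neurons are highest at both ages, in E replicates 1 and 4 stand above the other P21 non-neuron libraries, and in F P0 replicates 4 and 5 of both cell types lie near 0.

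Neurons and non-neurons were also compared at each age. The rule sets no level of neurons against non-neurons at either age. It does fix the change between them: with a non-neuron ratio of at least 2 and a neuron ratio of at most 1.5, the ratio of neurons over non-neurons falls from P0 to P21 in every member. The values at P21 against those at P0 are therefore largely set by the choice of members, and they are described with no p. Neither age alone is free of the choice. A low P0 non-neuron mean raises both the ratio that chose the members and the ratio of neurons over non-neurons at P0. A high P21 non-neuron mean raises the first and lowers the ratio of neurons over non-neurons at P21. At P0 few members were called apart between the cell types. The ratio of neurons over non-neurons had a median of 1.10 over the members and 0.944 over all kept intervals. At P0, 14 of the 399 tested members were called higher in neurons (3.51%, against 6.92% of all tested intervals) and 2 lower (0.501%, against 2.86%). The members were weakly read, with a median of 20.3 reads per library against 65.2 over all kept intervals. The part of read level in these low shares was not tested.

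At P21 the ratio of neurons over non-neurons had a median of 0.632 over the members and 0.849 over all kept intervals. At that age 140 members were called lower in neurons (35.1%, against 15.0% of all tested intervals) and 5 higher (1.25%, against 20.8%). The median log2 fold change, neurons over non-neurons, was -0.47. The scaling of the libraries moves this comparison: with the scaling of the rule the median over all tested intervals went from -0.06 to -0.23, and that of the members to -0.65. The count called lower in neurons was then 230.

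Followed over both ages, 138 members (34.6%, against 13.6% of all tested intervals) were not called at P0 and lower in neurons at P21. In 245 (61.4%, against 62.3%) the cell types were called apart at neither age. Another 9 members (2.26%, against 0.930%) were higher in neurons at P0 and not called at P21. In 5 members (1.25%, against 5.95%) neurons were called higher at both ages, and in 2 (0.501%, against 1.42%) lower at both.

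The interval chr17:67528623-67529817 (1194 bp) was not called between the cell types at P0 and was lower in neurons at P21. It gave 20.6, 19.2, 19.3, 20.1 and 19.4 CPM in P0 neurons and 20.8, 22.9, 18.2, 17.6 and 20.3 CPM in P0 non-neurons. At P21 it gave 24.4, 26.8, 20.8, 26.5 and 30.3 CPM in neurons and 41.6, 36.9, 42.3, 45.6 and 42.5 CPM in non-neurons. The cell types overlapped at P0, and at P21 every non-neuron library lay above every neuron library. The log2 fold change of neurons over non-neurons was -0.02 ± 0.12 (SE) at P0 and -0.70 ± 0.11 at P21. Each of its 20 values rests on at least 110 reads.

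Another member with these calls, chr11:100382498-100382726 (228 bp), had 29.3, 25.1, 14.2, 25.1 and 16.3 CPM in P21 non-neurons and 9.23 to 11.8 CPM in P21 neurons. Its P0 values ran from 7.28 to 11.9 CPM over both cell types. The P21 neurons lay within that range, and all P21 non-neurons lay above it. Its age ratio in neurons was 1.06, and the interaction was called at -0.95 ± 0.25 (SE) on the log2 scale. This member and chr13:34224272-34224484 are examples in which the neuron libraries of the 2 ages overlapped.

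The interval chr4:122344031-122344314 (283 bp) rose from 16.1 ± 3.07 to 34.2 ± 8.50 CPM (SD, n = 5) in non-neurons, with replicate 1 highest at 48.7 CPM. In neurons it went from 16.8 ± 2.83 to 21.1 ± 4.28 CPM. The interval chr7:36164278-36166575 (2297 bp) went from 12.7 ± 5.61 to 26.7 ± 7.64 CPM in non-neurons and from 14 ± 6.75 to 14.6 ± 1.65 CPM in neurons. In chr7:36164278-36166575, P0 replicates 4 and 5 of both cell types, at 6.30 to 8.03 CPM, lay below P0 replicates 1 to 3, at 12.7 to 21.3 CPM. Its lower level in P21 neurons, -0.86 ± 0.31 (SE) on the log2 scale, was not called without P21 non-neuron replicate 2 (-0.69) and in several other leave-one-out fits.

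Among members above the median level of all kept intervals, the largest folds of neurons over non-neurons at P0 were at a pair of touching intervals on chromosome 11. The interval chr11:113667215-113667703 (488 bp) gave 117, 125, 135, 124 and 136 CPM in P0 neurons and 37.6, 35.3, 28.7, 43.7 and 42.5 CPM in P0 non-neurons. At P21 it gave 199, 144, 224, 213 and 176 CPM in neurons and 84.4, 70.8, 82.7, 81.3 and 81.7 CPM in non-neurons. All 4 groups were separate from one another, with P21 neurons highest and P0 non-neurons lowest. Neurons exceeded non-neurons by 1.76 ± 0.11 (SE) on the log2 scale at P0 and by 1.25 ± 0.10 at P21. The interval thus rose in both cell types, and the neurons stayed above the non-neurons at P21.

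The touching member chr11:113667703-113667820 (117 bp) had the same order, with 31.3 ± 3.84 CPM (SD, n = 5) in neurons and 8.13 ± 1.41 CPM in non-neurons at P0. At P21 it had 45.8 ± 6.27 and 19.1 ± 1.57 CPM. The next interval, chr11:113667820-113668763 (943 bp), was not a member, with a ratio of 1.66 in non-neurons. Sharing an end site with a member, it is not independent of the choice of members. It went from 18.5 ± 3.87 to 31.5 ± 3.58 CPM there, and its log2 fold change was 0.77 ± 0.12 (SE, edgeR adjusted p = 5.55e-07). It was far higher in neurons, at 68.0 ± 1.46 CPM at P0 and 99.6 ± 9.04 CPM at P21.

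The next largest folds at P0 above that level were smaller. The interval chr7:94169539-94170984 (1445 bp) went from 12.5 ± 1.23 to 26.1 ± 1.29 CPM (SD, n = 5) in non-neurons and from 21 ± 1.67 to 31.4 ± 3.09 CPM in neurons. The interval chr5:31932517-31933923 (1406 bp) went from 19.4 ± 2.3 to 40.8 ± 6.43 CPM in non-neurons and from 31.6 ± 4.77 to 49.9 ± 6.91 CPM in neurons. Both were separate between the cell types at P0 and overlapped at P21. Their call as higher in P21 neurons, at 0.26 ± 0.11 and 0.29 ± 0.12 (SE) on the log2 scale, was lost in most of the leave-one-out fits.

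The fifth member called higher in neurons at P21, chr5:139855076-139856573 (1497 bp), was a weakly read interval below that level, with a log2 fold change of neurons over non-neurons of 4.23 ± 0.74 (SE) at P0, larger than at the chromosome 11 pair. It had 8, 13, 10, 3 and 11 reads in P0 neurons and 17, 30, 10, 9 and 24 in P21 neurons. Non-neurons had 2, 0, 0, 0 and 0 reads at P0 and 1, 0, 2, 1 and 2 at P21. It entered with a ratio of 2.44 in non-neurons, from 6 reads in all at P21 and 2 at P0, for which the exact 95% counting interval runs from 0.442 to 25. It was the 1 member with so few P0 non-neuron reads, and no change with age was called in it in non-neurons.

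The 2 members called lower in neurons at both ages were chr19:45315400-45316025 (625 bp) and chr2:77769397-77769574 (177 bp), named after their values were seen. The first had 4.59, 4.33, 3.54, 2.16 and 1.80 CPM in P0 non-neurons and 6.00, 8.42, 9.40, 9.03 and 8.34 CPM in P21 non-neurons. Its neuron values ran from 1.2 to 1.93 CPM at P0 and from 1.27 to 2.83 CPM at P21. The second went from 3.01 ± 1.12 to 6.37 ± 2.43 CPM (SD, n = 5) in non-neurons, with 1.34 ± 0.621 and 1.19 ± 0.427 CPM in neurons. The P0 calls of both were lost when single P0 libraries were left out, among them P0 non-neuron replicate 1 for the first and replicate 3 for the second.

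Interval length was not part of the rule, and the members were far from the rest in it. Of the 434, 216 (49.8%) were 100 to 300 bp long, against 14.1% of all kept intervals. The same lengths made up 7.03% of the 910 intervals that rose in neurons with a non-neuron ratio near 1, and 5.37% of the 1732 that rose in both. They made up 5.49% of the 455 that fell in non-neurons with a neuron ratio near 1. Only 24 members (5.53%, against 35.5%) were 300 to 1200 bp long, and 160 (36.9%, against 36.4%) were 1600 bp or longer. Of the intervals kept, 6.13% of those of 100 to 200 bp were members, 0.153% of those of 400 to 800 bp and 2.22% of those of 2000 to 2500 bp.

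The libraries themselves differed in how they read short intervals. For each library the lowess trend of its log2 count against interval length, relative to the mean of all libraries, was taken. At 100 to 300 bp P21 non-neuron replicate 1 lay 0.66 above the mean of all libraries on the log2 scale and replicate 4 lay 0.48 above it. The other P21 non-neuron libraries lay 0.06 to 0.14 above it, and the 15 libraries of the other groups between -0.26 and 0.16. The short members and these 2 libraries thus moved together. The part of the library trend in the members' gain was not tested.

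**Figure D3:**
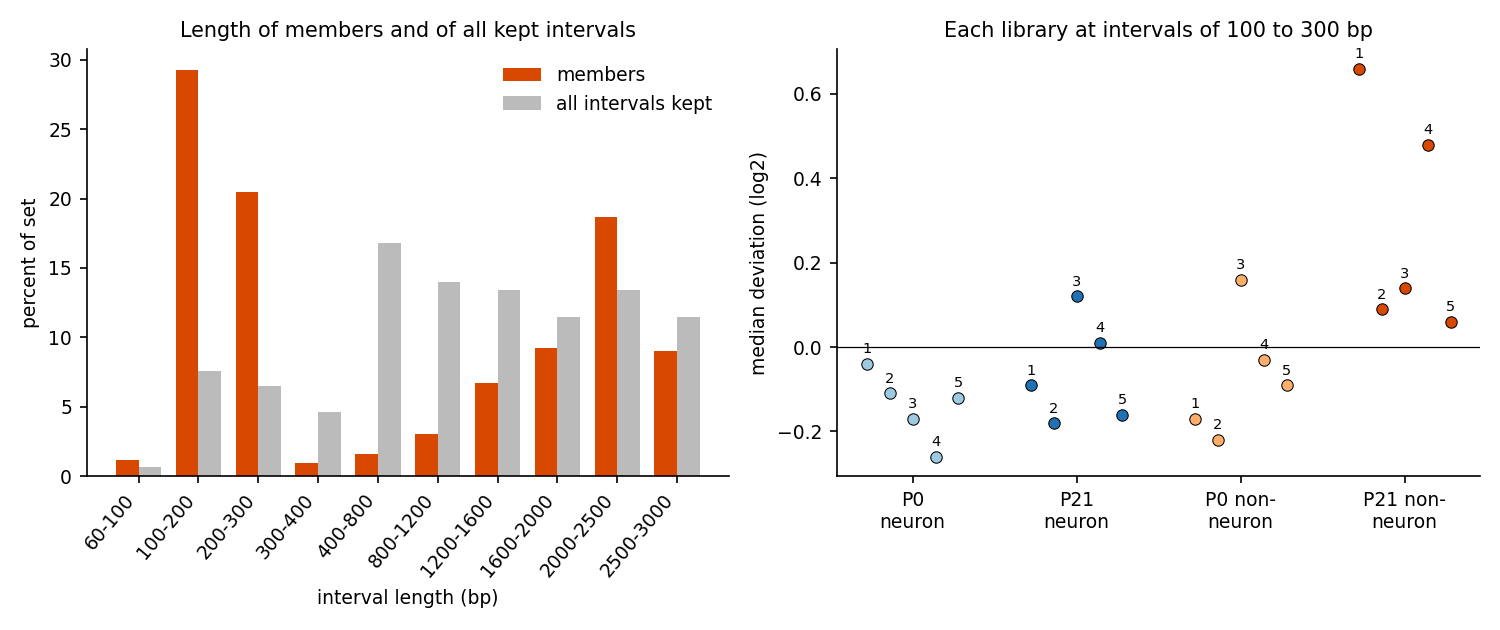
Left, the percent of members (orange) and of all kept intervals (grey) in each length class in bp. Right, the median deviation of each library from the mean of all libraries at intervals of 100 to 300 bp, in log2, with replicate numbers; P21 non-neuron replicates 1 and 4, at 0.66 and 0.48, stand above the other 18.

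Without P21 non-neuron replicates 1 and 4, 251 of the 434 members (57.8%) kept a non-neuron ratio of at least 2. Among the 216 members of 100 to 300 bp it was 63 (29.2%), with a median ratio of 1.84 in place of 2.21. Among the other 218 it was 188 (86.2%), with a median ratio of 2.33 in place of 2.25. Short members were thus close to 2 in the other 3 libraries and mostly below it. With each library's length trend removed, 121 of the 399 members that could be corrected still met the rule, 26 of 194 short ones and 95 of 205 others. The median ratio was then 1.83, and 398 of the 399 stayed at 1.5 or more.

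The calls were also counted by length. Of the 196 tested members up to 300 bp, 86 (43.9%) were called lower in neurons at P21 and 37 (18.9%) rose in neurons with age. Of the 203 longer ones, 54 (26.6%) were lower in neurons at P21 and 80 (39.4%) rose in neurons. Over all tested intervals the same order held: 28.6% of those up to 300 bp and 12.7% of longer ones were lower in neurons at P21, and 19.7% and 32.9% rose in neurons.

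The gain was looked for in libraries whose ratios had no part in choosing the intervals. One replicate number was left out of all 4 groups, and the ratio limits of the rule were applied to the other 4 libraries per group. The age ratio of the chosen intervals was then taken in the replicate left out, with 0.5 reads added. The read filter and the intervals used for scaling still rested on all 20 libraries, those left out included. The left-out ratios were therefore not fully independent of the choice. The 5 rounds chose 424 to 689 intervals. In the left-out non-neuron libraries the median ratio was 1.76, 1.93, 1.49, 1.93 and 1.48 for replicates 1 to 5, against 0.932 to 1.03 over all kept intervals. Between 78.8% and 91.4% of the chosen intervals were above 1. All 5 medians lay above those of all kept intervals and below the ratio of 2 that chose the members.

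In the left-out neuron libraries the median ratio of the same intervals was 1.48, 1.5, 1.59, 1.45 and 1.26, against 0.919 to 1.03 over all kept intervals. In replicate 3 it exceeded the non-neuron median of 1.49. The gap between the cell types was thus smaller in libraries whose ratios did not choose the intervals, and in 1 of 5 it went the other way. For intervals of 100 to 300 bp the left-out non-neuron ratio was 2.76 in replicate 1 and 1.96 in replicate 4, and 1.31 to 1.77 in the others. For intervals of other lengths it ran from 1.60 to 2.03.

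**Figure D4:**
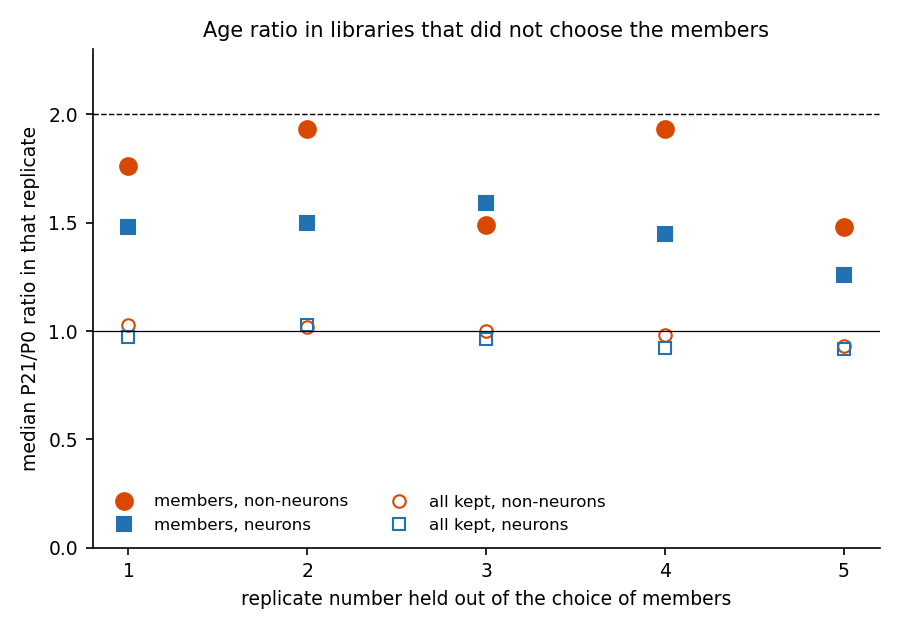
Median P21/P0 ratio (y axis) in the replicate left out of the choice (x axis), for intervals chosen on the other 4 replicates (filled) and for all kept intervals (open), in non-neurons (circles) and neurons (squares); the dashed line marks the ratio of 2 used by the rule. Chosen intervals lie above all kept intervals in both cell types, and in replicate 3 the neuron median of 1.59 lies above the non-neuron median of 1.49. The read filter of the choice used all 20 libraries, those left out included.

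The P0 libraries held a split of their own at a few intervals. In 3 of the 434 members (0.691%), and in 44 of the 27259 kept intervals (0.161%), P0 replicates 1 to 3 were at least 4-fold above replicates 4 and 5 in both cell types. The best covered was chr4:103106166-103108355 (2189 bp), the member with the highest level in P21 non-neurons. It had 134, 128, 117, 2.57 and 3.18 CPM in P0 neurons and 133, 147, 129, 1.70 and 1.62 CPM in P0 non-neurons. At P21 it had 74.7, 63.2, 69.0, 59.1 and 62.6 CPM in neurons and 246, 246, 209, 208 and 170 CPM in non-neurons. Both P0 groups fell into high and nearly empty libraries with the same numbers, while the P21 groups did not. Its ratio in non-neurons, 2.59 over all libraries, was 1.57 with P0 replicates 1 to 3 and 125 with replicates 4 and 5. In neurons it was 0.80 over all libraries, 0.488 with the first and 20.2 with the second.

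The others were chr11:96950917-96951538 (621 bp) and chr5:76834155-76836507 (2352 bp), named after their values were seen. The first had 52.1, 46.2, 37.8, 0.772 and 0.180 CPM in P0 non-neurons and 47.2 to 91.1 CPM in P21 non-neurons. Its ratio in non-neurons was 1.36 with P0 replicates 1 to 3 and 127 with replicates 4 and 5. The second had 42, 36, 25, 7 and 5 reads in P0 non-neurons and 33, 22, 28, 0 and 0 in P0 neurons. Its ratio was 1.48 with P0 replicates 1 to 3. None of these 3 had a called change with age, and with P0 replicates 1 to 3 alone none of them reached the ratio of 2.

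Over all 434 members the choice of P0 libraries moved the median ratio less, but it changed which intervals met the rule. With P0 replicates 1 to 3, 571 intervals met the full rule, and 266 of them were among the 434. With replicates 4 and 5, 647 met it, and 215 of them were among the 434. With P0 replicates 1 to 3 the median ratio in non-neurons was 2.32 and 359 members stayed at 2 or more. With replicates 4 and 5 it was 2.20, and 289 stayed at 2 or more. At least 419 of the 434 members stayed at 1.5 or more in either case.

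Of the 178 members with a touching interval in the deposited table, 22 touched another member. They formed 11 pairs that shared a cut site, and the longest run was 2. Within 10 kb of another member lay 26 members and within 100 kb 52, and the median gap to the nearest other member was 1755 kb. The same figures were not taken over all kept intervals, so whether members lie closer or farther apart than others was not tested. Besides the chromosome 11 pair, the runs with the highest level were on chromosomes 1 and 4. The pair chr1:13253978-13255073 and chr1:13255073-13255662 had ratios of 2.13 and 2.60 in non-neurons and 1.46 and 1.38 in neurons. The second of that pair was weakly read, at means of 0.637 CPM in P0 non-neurons and 1.70 CPM in P21 non-neurons. Its coefficient of variation in P21 non-neurons was 47.2%, and edgeR did not test it. The pair chr4:3006044-3006198 and chr4:3006198-3006354 had ratios of 2.36 and 2.47 in non-neurons and 1.2 and 1.1 in neurons. In the latter pair P21 non-neuron replicate 4 was highest in both intervals, at 6.25 and 7.92 CPM.

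By chromosome, the X held 24 members among 606 kept intervals (3.96%), chromosome 3 held 28 (2.57%) and chromosome 1 held 38 (2.48%). The lowest shares were 0.831% on chromosome 15, 0.856% on chromosome 2 and 0.930% on chromosome 11. The Y held 1 member among 13 kept intervals. Interval lengths and read levels were not compared between chromosomes, and the differences in share were not tested.

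Intervals that touch a member and are no members themselves share 1 end site with it. The rule did not choose them, but that site also entered the counts that chose the members, in the same libraries. They are therefore not independent of the choice. Of 175 such intervals, 119 were tested. At P21 75 of the 119 (63.0%) had risen in non-neurons by edgeR's quasi-likelihood test and 8 (6.72%) had fallen, where 23.4% of the 12008 non-members that touch any tested interval had risen. The median log2 fold change was 0.63, against -0.06 over those 12008 intervals. In neurons 54 of the 119 (45.4%, against 27.6%) had risen, with a median of 0.36 against -0.03. Calls of a rise were thus more frequent next to members than next to intervals in general, in both cell types. How much of this comes with the shared end site was not tested.

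The same counts were taken by length. Of the 91 touching intervals of 400 bp or more, 57.1% had risen in non-neurons and 47.3% in neurons. The share over comparison intervals of 400 bp or more was not taken, so no excess at that length is read from these counts. Next to members of 100 to 300 bp, 27 of 36 had risen in non-neurons, and next to the other members 57.8% of 83. With the length trends removed, 52.9% of all 119 had risen in non-neurons and 37.8% in neurons, against 20.1% and 25% of the 12008. Of 98 intervals within 5 kb of a member that did not touch it, 36.7% had risen in non-neurons and 34.7% in neurons. Over all tested intervals 28.5% and 31.0% had risen. With the length trends removed, 23.5% of the 98 had risen in non-neurons and 32.7% in neurons, against 25.2% and 28.3% of all tested intervals.

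**Figure D5:**
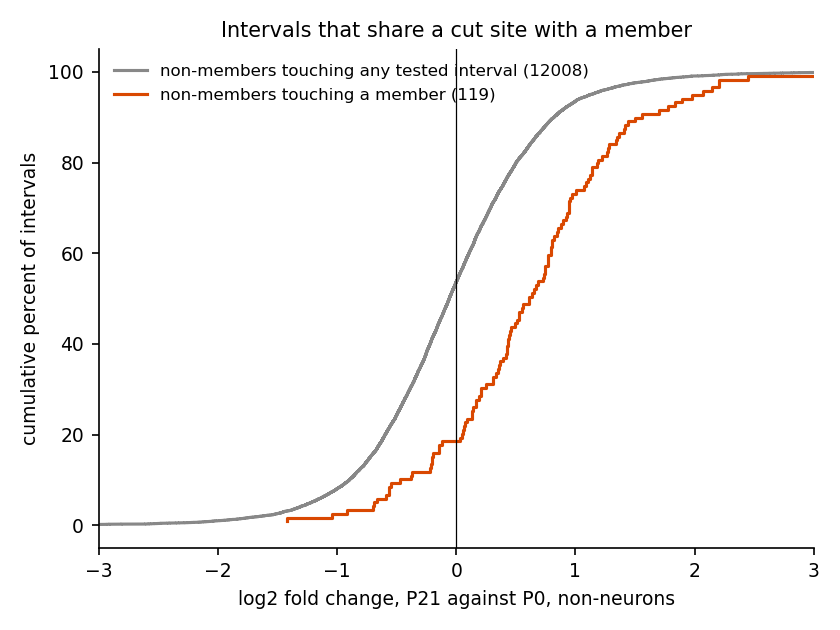
Cumulative percent (y axis) of tested non-member intervals by log2 fold change from P0 to P21 in non-neurons (x axis), for the 119 that touch a member (orange) and the 12008 that touch any tested interval (grey); values beyond the axis are not drawn. The curve of the intervals that touch a member lies to the right, with a median of 0.63 against -0.06. The end site they share with a member also entered the counts that chose it.

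Most touching intervals that rose in non-neurons also rose in neurons, 48 of 75. This was not shown to be particular to them. Of the 2810 risen in non-neurons among the 12008, 819 had no called change in neurons. In 48 of the 119 (40.3%) a rise was called in both cell types. In 23 (19.3%, against 6.82% of the 12008) it was called in non-neurons, and neurons had no called change. The interaction was called as larger in non-neurons in 9 (7.56%, against 3.24% of all tested intervals) and as larger in neurons in 4 (3.36%, against 10.9%). In 29 of the 175 the non-neuron ratio was at least 2 and the interval missed the rule only because its neuron ratio was above 1.5.

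A well covered example, named after its values were seen, was chr10:9482709-9483780 (1071 bp). It shares an end site with a member, so its adjusted p values are not independent of the choice of members. It had 56.6, 62.2, 55.3, 59.4 and 59.4 CPM in P0 non-neurons and 71.4, 88.3, 76.3, 74.6 and 86.2 CPM in P21 non-neurons. Neurons had 55.7 to 68.3 CPM at P0 and 61.1 to 78.7 CPM at P21. The non-neuron ages were separate, and the neuron ages overlapped. The log2 fold change was 0.44 ± 0.09 (SE, edgeR adjusted p = 0.000116) in non-neurons and 0.12 ± 0.09 (adjusted p = 0.260) in neurons. The interaction missed the limit, at -0.32 ± 0.13 (adjusted p = 0.107), so the 2 changes were not shown to differ.

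The ratio of 2 cut through a continuous range. The members nearest to it were chr5:114596857-114599258 (2401 bp) and chr17:59674758-59674956 (198 bp), both at 2.001 in non-neurons. The nearest intervals outside were chr19:45758224-45759632 (1408 bp) at 1.997 and chr8:87537676-87540222 (2546 bp) at 1.996. The first of the outer pair went from 14.4 ± 0.907 to 29.7 ± 6.46 CPM (SD, n = 5) in non-neurons, a higher level than either inner one.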

How the data were processed

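Methylation-specific amplification libraries of sorted neuronal and non-neuronal nuclei were analysed, 5 per group and 20 in all. The deposited table gives 1 read count per library and SmaI/XmaI interval. Its values are whole numbers whose totals differ between libraries, and they were taken as raw counts. Bowtie 0.12.9, cutadapt, FastQC 0.10.1 and the build mm9 are named, with no roles given, per the submitters' processing notes. The counting of reads over intervals and the treatment of multiply mapping reads are not given in the sources used here. Column names were matched to samples by age, replicate number and a letter, N being neurons and G (glia, as in the title) non-neurons. Intervals are given by position on mm9. A genome and gene annotation of that build were not used here, so no gene, exon or promoter was assigned and no sequence is shown.

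Members and lists were chosen with earlier results of these data known. The test was edgeR 4.0.16 (R 4.3.3): filterByExpr (minimum count 10, total 15), which left 26679 intervals, TMM scaling, 1 mean per group over all 20 libraries, glmQLFit (robust) and glmQLFTest, with Benjamini-Hochberg adjustment over all tested intervals. The 5 comparisons were the 2 ages in each cell type, the cell types at each age, and the interaction. Standard errors are the log2 fold change divided by the square root of F. Positive values are higher at P21 or in neurons, and the interaction is the change in neurons minus that in non-neurons. The biological coefficient of variation was 13.8%. The labels call the samples independent. Same-numbered neurons and non-neurons did not deviate together in every pair (correlations of -0.007 to 0.322), so numbers were not taken as pairs. The fit was tested on simulated counts. These held no length trend of the libraries and no split of the P0 libraries, so that test does not cover either. Reads carry no molecular identifiers.

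Intervals named were: the 6 largest non-neuron ratios above the median level of kept intervals with no overlap between ages; the 3 highest in P21 non-neurons; the 4 most neuron-high at P0 and the 4 most non-neuron-high at P21, called, without overlap and above that median level; the 3 runs of touching members with the highest level; the 2 nearest the ratio of 2 on each side; and the 2 with the largest coefficient of variation in P21 non-neurons above that level. All passed filterByExpr except chr1:13255073-13255662, which lies in a named run and was not tested. All intervals outside these lists were named after their values were seen. Alternatives were DESeq2 1.42.0, limma-voom (limma 3.58.1), other scalings, filters and thresholds, leaving out each library, and a replicate block. The removal of length trends from the rule (lowess, span 0.2), the rule without P21 non-neuron replicates 1 and 4, and the limit of 400 bp for touching intervals were added after seeing the data. Plots were drawn with matplotlib 3.10.9.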

Additional observations from a re-analysis of the deposited data

Results flagged for a closer look

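At 9 of the members named the interaction of cell type and age was called, which holds for 3.24% of all tested intervals in this direction. The members were chosen for a larger change in non-neurons, so the direction and much of the size come from that choice, and the values are a description. The interaction on the log2 scale was -3.80 at chr13:34224272-34224484, -2.16 at chr3:123588175-123588329, -0.95 at chr11:100382498-100382726 and -0.81 at chr5:22118910-22120634. It was -0.76 at chr4:122344031-122344314, -0.69 at chr11:113667703-113667820, -0.68 at chr17:67528623-67529817, -0.51 at chr11:113667215-113667703 and -0.48 at chr7:94169539-94170984. The value at chr11:113667703-113667820 was -0.39 and not called with the length trends removed, and that at chr7:94169539-94170984 was lost when any of 9 libraries was left out (-0.43 to -0.48).

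In 5 of 128 groups of named members a single library lay far from the other 4, where chance gives about 1 in 20. P21 non-neuron replicate 1 had 5.44 CPM at chr13:34224272-34224484, above the others. P21 non-neuron replicate 2 had 12.9 CPM at chr5:76834155-76836507, above the others, and 70.8 CPM at chr11:113667215-113667703, below them. P21 neuron replicate 4 had 10.9 CPM at chr10:94427269-94428919, below the others. P0 non-neuron replicate 1 had 0.306 CPM at chr5:139855076-139856573, where the others had no read.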

How the results depend on the processing

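The number of members, 434, was 1044 with no read filter, 289 with at least 20 reads in at least 5 libraries, 257 with the length trends removed, 7 with a ratio of 3 and a neuron ratio of 0.8 to 1.2, and 424 (without replicate 1) to 689 (without replicate 3) leaving out 1 replicate number. Their median length, 270.5 bp, was 1478 bp with P0 replicates 4 and 5 only, 1360 bp with group medians, 1994 bp with the length trends removed, 1852 bp without P21 non-neuron replicates 1 and 4, and 204 bp (without replicate 3) to 1776 bp (without replicate 1) leaving out 1 replicate number, with 1006 bp without replicate 2. The left-out non-neuron ratio ran from 1.48 to 1.93. The 117 members risen in neurons were 63 with the length trends removed, 183 with total-count scaling and 100 to 121 leaving out 1 library. The 48 interactions were 78 with the scaling of the rule, 85 with upper-quartile scaling and 35 to 53 leaving out 1 library. The 140 members lower in neurons at P21 were 230 and 244 with those 2 scalings and 108 to 150 leaving out 1 library. The 14 higher in neurons at P0 were 11 to 17 leaving out 1 library. The 2 lower at P0 were 0 with limma-voom and 0 (without P0 neuron replicate 2) to 2 leaving out 1 library. The 5 higher in neurons at P21 were 3 with DESeq2, with RLE, total-count, upper-quartile or rule scaling and with the length trends removed, 2 with at least 20 reads, and 3 to 5 leaving out 1 library. A 2-fold minimum left 0 rises in neurons, 30 interactions, 8 and 3 members higher in neurons at P0 and P21, 54 lower at P21, and 33 and 19 touching intervals in non-neurons and neurons. Touching intervals risen in non-neurons were 69 to 76 leaving out 1 library, and those within 5 kb had risen in 36.7%. The cause of these shifts was not tested.

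The replicate block gave 390 rises in non-neurons, 121 in neurons, 55 interactions and 142 members lower in neurons at P21, and a block of age by replicate number gave 69 interactions. Over 185 values of named intervals, 0 of 5621 alternatives were classed as reversed, 111 lost a call and 98 gained one. Values near 0 are not thereby shown to keep their sign. The median log2 fold change of neurons over non-neurons at P0 was 0.01 over all tested intervals with TMM scaling. With upper-quartile scaling it was -0.09. Depth limits many members: 85 averaged under 10 reads per library.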
